A study of Mus musculus with 24 samples.

Results

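The cluster of miR-132 and miR-212 is a pair of neighbouring microRNA hairpins that yields 4 mature miRNAs, mmu-miR-132-3p, mmu-miR-132-5p, mmu-miR-212-3p and mmu-miR-212-5p. These members were taken by name, with no threshold on their signals, and make up 4 of the 1881 mouse miRNAs on the arrays. They were measured in 8 tissues of C57BL/6J mice, namely the cornea, iris, lens, retina, choroid and sclera of the eye and 2 brain regions labelled SCN and LGN, the usual short names of the suprachiasmatic nucleus and the lateral geniculate nucleus. The normal group came from eyes without a lens. The −30 D group came from eyes that wore a negative lens of −30 diopters, fitted on the right eye of male mice at 3 weeks of age and worn for 3 weeks, which is a model of lens-induced myopia. The 0 D group is given by the labels as 0D, a lens without power, and its wearing time is not given in the sources used here. The sample called choroid was taken as the retinal pigment epithelium and choroid together. Each tissue of each lens group was 1 array, for 24 arrays in all. RNA of 3 mice was mixed before labelling for each ocular tissue of the normal and −30 D groups. For the SCN, the LGN and the 0 D group the number of mice per array is not given in the sources used here, nor are the brain side and the hour of collection, although the cluster is known to answer to light. No genotype beyond the strain is given.

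A miRNA is a short RNA that binds messenger RNAs, mainly through its seed (bases 2 to 8), and lowers their translation or stability. In neurons the miR-132 and miR-212 hairpins are transcribed together when the transcription factor CREB is activated, for example by synaptic activity or by the growth factor BDNF. The transcript is induced by light in the suprachiasmatic nucleus, where miR-132 adjusts the resetting of the circadian clock, and by visual experience in the visual cortex, and miR-132 promotes the growth of dendrites and spines.

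The 4 mature sequences are shown first because the relation between the 2 hairpins lies in the seeds, which are in capitals. Sequences and positions are from RefSeq (GRCm38.p6), in which all 4 members were matched.
mmu-miR-132-3p: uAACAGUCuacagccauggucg
mmu-miR-212-3p: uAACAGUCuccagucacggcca
mmu-miR-132-5p: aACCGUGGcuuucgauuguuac
mmu-miR-212-5p: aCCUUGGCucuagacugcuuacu

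The 2 3p members share the seed AACAGUC, and no other mature miRNA of the 1679 names in the RefSeq table holds it. Counted from the 5′ end, they are identical over the first 9 bases and at 17 of 22 positions. The differences, with the base of miR-132-3p first, are A10C, C14U, U17C, U20C and G22A. The 2 5p members have different seeds, ACCGUGG and CCUUGGC, each held by no other name in the table. Both hairpins lie on the plus strand of chromosome 11, Mir212 at chr11:75173388-75173478 and Mir132 at chr11:75173682-75173747, with 203 bases between them. The hairpins are shown with their mature arms in capitals, because the 5p and 3p members of a hairpin come from 1 transcript and yet differed in detection.
Mir212: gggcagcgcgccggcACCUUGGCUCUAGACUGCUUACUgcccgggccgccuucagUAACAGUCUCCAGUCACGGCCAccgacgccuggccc
Mir132: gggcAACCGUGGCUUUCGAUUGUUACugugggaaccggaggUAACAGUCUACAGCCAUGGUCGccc

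Each member has 2 probes with 15 spots each. A member was counted as detected on an array where a probe signal, an intensity after background subtraction, exceeded 3 times its error, and its signal was the sum over such probes. Both probes passed on 9 of the 16 arrays that detected miR-132-3p and on 10 of the 18 that detected miR-212-3p. On the others the signal rests on 1 probe. Arrays were brought to 1 scale by the 75th percentile of the 79 miRNAs that every array detected. The scaling multiplied the cornea and lens arrays up and most others down (log2 factors from −1.01 to 1.65). For the members, values without scaling are therefore given wherever the scaling decides an order. Markers are given on scaled signals alone unless stated. A value with ± is the error within 1 array unless SD is named. Levels are compared between arrays for 1 member, never between members, because probes differ in brightness. In these bulk tissues, fewer cells that make a miRNA and less miRNA per cell cannot be told apart. The arrays detected 129 to 249 miRNAs. The retinal photoreceptor miRNAs miR-183-5p, miR-96-5p and miR-182-5p summed to scaled signals of 14498 to 16170 in the retina and 0.0 to 8.21 in the SCN and LGN. The epithelial pair miR-205-5p and miR-203-3p summed to 957 to 1179 in the cornea and at most 8.06 in the iris, with no detection in the other 6 tissues. All 8 neuronal markers (miR-124-3p, miR-9-5p and others) were detected in the SCN and the LGN, where they summed to 3853 to 4652. In the retina 1 of the 8 was not detected and the sum was higher, 11099 to 12383. Most of it was miR-124-3p, with a mean of 10684 there, 1441 in the SCN and 1923 in the LGN.

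The strongest signals of miR-132-3p came from the brain. In the SCN it had scaled signals of 280 ± 22.5 in the normal group, 282 ± 22.4 in the 0 D group and 320 ± 25.4 in the −30 D group. In the LGN the same values were 245 ± 19.5, 183 ± 14.7 and 197 ± 15.8. The retina had 89.5 ± 7.32, 84.1 ± 6.79 and 69.7 ± 5.78. None of these 3 tissues overlapped another, and every SCN and LGN array lay above every retinal array.

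Below the retina the signal of miR-132-3p fell to near the detection limit. The choroid had 9.65 ± 1.59, 7.85 ± 1.73 and 7.83 ± 1.5 in the normal, 0 D and −30 D groups, and the iris 5.24 ± 1.09, 3.95 ± 0.828 and 3.93 ± 1.14. The sclera had 3.7 ± 1.23 in the normal group and was not detected in the other two. In the cornea and the lens miR-132-3p was not detected on any array. Those arrays allow up to 15.8 to 24.3 in the cornea and 21.9 to 27.4 in the lens, which is above the level of the choroid, so the order of the cornea and lens among the dim tissues is not known.

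**Figure D1:**
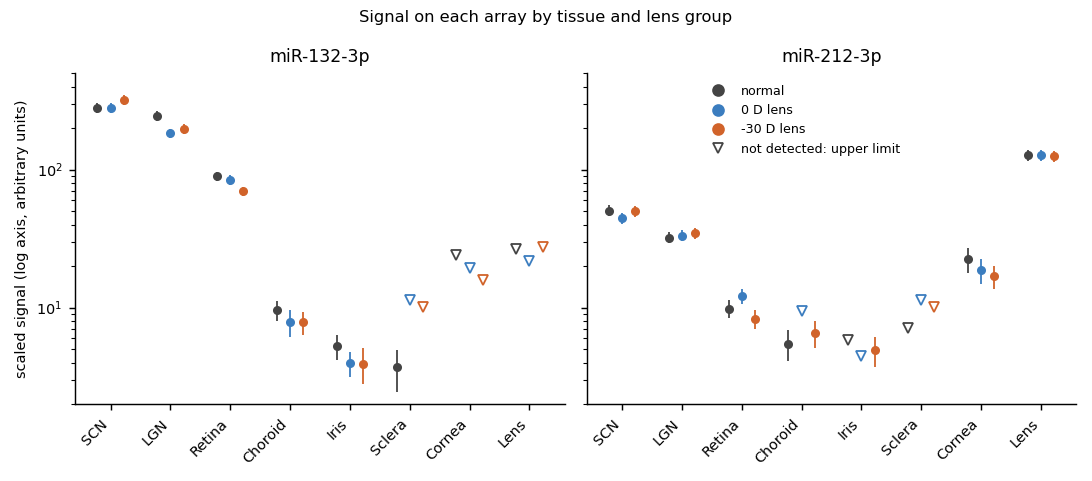
Scaled signal (log axis, arbitrary units) of miR-132-3p and miR-212-3p on each of the 24 arrays by tissue, coloured by lens group; bars are the error within an array and open triangles the upper limit where the miRNA was not detected. miR-132-3p stepped down from 280 to 320 in the SCN to 69.7 to 89.5 in the retina, while miR-212-3p was brightest in the lens, at 126 to 127.

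Folds between tissues were computed from the means of the log2 signals of 3 arrays. miR-132-3p was 3.64-fold higher in the SCN than in the retina (3.13 to 4.59 over the lens groups) and 2.56-fold higher in the LGN than in the retina (2.18 to 2.83). The SCN exceeded the choroid 34.9-fold and the iris 67.6-fold, and the retina exceeded them 9.6-fold and 18.6-fold. Against the lens, with the undetected side at its limit, the SCN was at least 11.6-fold and the retina at least 3.19-fold higher. Against the cornea these bounds were at least 15.0-fold and at least 4.14-fold.

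The contrasts were tested in limma with the tissue and the lens group in the fit, so that the 3 lens groups of a tissue act as its replicates, and signals below a common floor of 9.93 were raised to it. For the mean of SCN and LGN minus the mean of the 5 non-retinal ocular tissues, miR-132-3p gave a log2 difference of 4.63 ± 0.0522 (SE; adjusted p = 1.23e-19, limma). In this contrast 70.7% of the 352 miRNAs tested were called, so a call by itself is common. For the retina minus the non-retinal ocular tissues the difference was 3.02 ± 0.0684 (adjusted p = 3.21e-15, limma), where 57.1% of all miRNAs were called. For the retina minus brain it was −1.61 ± 0.0765 (adjusted p = 2.14e-11, limma), with 48.6% called, and for the retina minus LGN −1.36 ± 0.0883 (adjusted p = 1.88e-09, limma), with 43.8% called. The SE is pooled over all tissues, and those at the floor contribute no spread, which makes it small. In exact permutation tests over the arrays the retina minus brain contrast had p = 0.0238, the smallest that 3 against 6 arrays can give.

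The difference between the SCN and the LGN depended on the scaling. miR-132-3p was 0.50 ± 0.0883 (SE, log2) higher in the SCN (adjusted p = 0.000201, limma), beside 34.9% of all miRNAs called. Without scaling between arrays the difference was 0.03 (adjusted p = 1.0, limma), with means of 316 ± 93.9 in the SCN and 301 ± 27.8 in the LGN (SD, n = 3 arrays each) that overlapped. The exact permutation test of 3 against 3 arrays gave p = 0.10, the smallest it can give. The neighbours at the lower end, choroid and iris, both lay under the floor. With undetected signals alone replaced by the lowest detected signal of their array, the iris minus choroid difference was −0.95 ± 0.258 (SE, log2; adjusted p = 0.00643, limma) and the iris minus sclera difference 0.25 ± 0.258 (adjusted p = 0.388, limma).

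The low signal of miR-132-3p in the choroid stood beside low signals of retinal markers. As a share of the retina of the same lens group, miR-132-3p in the choroid was 10.8%, 9.33% and 11.2% (normal, 0 D and −30 D). The shares of the retinal markers there were 5.84% to 9.27% for miR-183-5p, 5.33% to 8.48% for miR-96-5p and 4.53% to 6.80% for miR-182-5p. The neuronal miR-124-3p had 5.59% to 8.63% and miR-9-5p 9.66% to 14.3%. Means of miR-9-3p were 170 ± 19.3 in the choroid and 803 ± 61.9 in the retina (SD, n = 3). Those of miR-128-3p were 12.8 ± 4.46 and 79.4 ± 9.02. The other 4 of the 8 neuronal markers were not detected in the choroid. Of these, miR-138-5p, miR-153-3p and miR-218-5p were detected on all 3 retinal arrays. In the sclera the 3 retinal markers had 2.79% to 6.85% of their retinal level, beside 4.13% for miR-132-3p in the normal group. There miR-124-3p had 3.15% to 5.15%, and miR-9-3p had a mean of 108 ± 5.70 (SD, n = 3). miR-128-3p was detected on 2 scleral arrays (6.39 and 8.31), and 5 of the 8 neuronal markers on none. In the iris, where miR-132-3p had 4.70% to 5.86% of the retina, miR-183-5p and miR-96-5p had at most 0.268% and miR-182-5p and miR-9-5p were not detected. The neuronal miR-128-3p had 8.73 to 28 on the iris arrays and 69.1 to 85.5 on the retinal arrays, and miR-218-5p had means of 11.7 ± 1.03 and 13.6 ± 2.67 (SD, n = 3). The neuronal miR-124-3p had 0.111% to 0.293% of its retinal level in the iris. miR-9-3p had 5.13 to 19.2 on the iris arrays and 746 to 868 on the retinal arrays. Of the 8 neuronal markers 4 were not detected in the iris. The part of retinal and neuronal RNA in the choroid, sclera and iris values was not tested.

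miR-212-3p, the member with the same seed, had another order of tissues. Its scaled signals in the lens were 127 ± 11.9 (normal), 127 ± 11.3 (0 D) and 126 ± 12 (−30 D). The SCN had 50.5 ± 4.57, 44.4 ± 3.75 and 50.2 ± 4.38, and the LGN 32.3 ± 2.84, 33.3 ± 2.95 and 34.6 ± 3.23. All lens arrays lay above all brain arrays on this scale, although miR-132-3p was not detected on any lens array.

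The cornea, where miR-132-3p was also undetected, had 22.4 ± 4.63, 18.7 ± 3.72 and 16.9 ± 3.14 for miR-212-3p. The retina had 9.86 ± 1.44, 12.1 ± 1.55 and 8.31 ± 1.32. In the choroid it was detected on 2 of 3 arrays (5.47 and 6.57), in the iris on 1 (4.91) and in the sclera on none. The cornea and retina arrays did not overlap on this scale.

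The place of the lens depended on the scaling. Without scaling, miR-212-3p had signals of 48.4 ± 4.55, 52.8 ± 4.70 and 39.9 ± 3.82 in the lens, 39.4 ± 3.57, 64.0 ± 5.41 and 50.8 ± 4.43 in the SCN, and 43.1 ± 3.79, 55.1 ± 4.88 and 47.7 ± 4.45 in the LGN. These 3 tissues overlapped fully. The lens minus SCN difference was 1.39 ± 0.0861 (SE, log2) with scaling (adjusted p = 3.75e-10, limma), where 60.2% of all miRNAs were called, and −0.11 without it (adjusted p = 0.783, limma). With scaling over the miRNAs of each array it was 0.74 and with quantile normalization 2.19. The lens minus retina difference was 3.57 ± 0.0861 (adjusted p = 1.05e-14, limma), with 51.4% called, and 1.53 without scaling (adjusted p = 2.23e-06, limma). It kept its sign in every alternative run, although with the total signal as the scanner files print it the value was 0.61 (adjusted p = 0.900, limma).

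**Figure D2:**
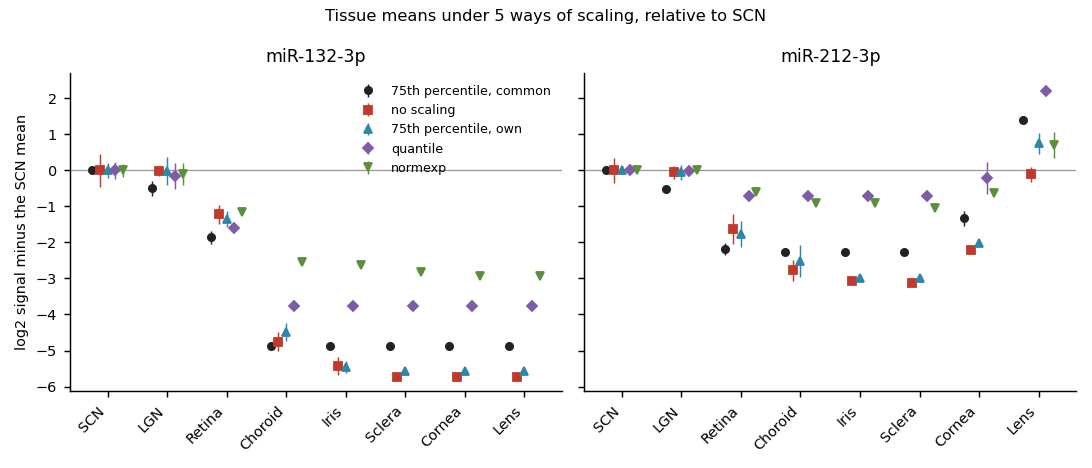
Tissue means of log2 signal minus the SCN mean (y axis) by tissue for miR-132-3p and miR-212-3p under 5 ways of scaling; bars are the SD of 3 arrays. For miR-132-3p the lens stayed far below the SCN in each, and for miR-212-3p it ran from −0.11 without scaling to 2.19 with quantile normalization.

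In the lens the retinal markers were low. miR-183-5p had 0.792% to 3.01% of its retinal level there, miR-96-5p 0.948% to 3.16% and miR-124-3p 0.920% to 3.83%, whereas miR-212-3p had 1046% to 1512% of its own retinal level. These shares are on scaled signals. Without scaling, miR-212-3p was 2.88-fold higher in the lens than in the retina. The mesenchymal (miR-199a-3p, miR-214-3p), blood and endothelial markers were not detected on any lens array, and the cornea and lens marker miR-184-3p had 11130 to 16390. On scaled signals other markers were high there. The striated muscle markers miR-133a-3p, miR-1a-3p and miR-206-3p summed to 361 to 402 in the lens and to at most 161 in any other tissue. The neuronal list summed to 191 to 456 in the lens, where 5 of its 8 miRNAs were not detected, and its member miR-218-5p had a mean of 69.9 ± 3.63 in the lens and 13.6 ± 2.67 in the retina (SD, n = 3). Values without scaling are not given for these markers. The scaling multiplied the lens arrays up, so their higher level in the lens may depend on it. The part of these markers in the miR-212-3p signal was not tested. Both probes of miR-212-3p were detected on all 3 lens arrays. The ratio of the brighter to the dimmer probe was 3.01 to 3.28 in the lens, 2.43 to 2.58 in the SCN and 2.64 to 2.86 in the LGN. The ratios of the lens were the highest of these, with errors of 0.413 to 0.707 on single ratios of the 3 tissues. No sequence of the probes is in the files used here, and cross-hybridization was not tested.

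Among the other tissues, the brain exceeded the retina for miR-212-3p as it did for miR-132-3p, by 4.84-fold for the SCN (3.66 to 6.04) and 3.34-fold for the LGN (2.75 to 4.16). The normal and −30 D retinal signals rest on 1 probe, and the 0 D retinal signal and all brain signals on both. The 0 D folds, 3.66 and 2.75, were the lowest of each range. The retina minus brain difference was −1.92 ± 0.0746 (SE, log2; adjusted p = 1.97e-12, limma) and the retina minus LGN difference −1.65 ± 0.0861 (adjusted p = 1.19e-10, limma). With the printed total signal, which for miR-212-3p differed from the sum of its probes on 8 of 24 arrays, these were 0.73 and 1.0. The SCN minus LGN difference was 0.53 ± 0.0861 (adjusted p = 8.86e-05, limma) and 0.06 without scaling (adjusted p = 1.0, limma).

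For brain minus non-retinal ocular tissues miR-212-3p gave 1.09 ± 0.0509 (adjusted p = 9.72e-12, limma), with 0.03 under quantile normalization and p = 0.0996 in the exact permutation test. Its iris, choroid and sclera lay at the floor, and with undetected signals at the lowest of their array the difference was 2.09 ± 0.215 (SE). For the retina minus non-retinal ocular tissues miR-212-3p gave −0.83 ± 0.0667 (adjusted p = 1.71e-08, limma), but −0.14 with the lens left out of the mean (adjusted p = 0.135, limma) and 0.62 without scaling, so this contrast has no settled direction. The cornea minus retina difference, 0.85 ± 0.0861 with scaling (adjusted p = 2.87e-07, limma), where 49.1% of all miRNAs were called, likewise turned to −0.57 without it. The cornea minus LGN difference was −0.80 ± 0.0861 (adjusted p = 5.98e-07, limma), with 51.7% called.

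The step from retina to brain was set against each other for the 2 members within each array. This removes the scaling from signals as measured, but not where the common floor raised a scaled signal. The log2 signal of miR-132-3p minus that of miR-212-3p was 3.18, 2.79 and 3.07 in the retina (normal, 0 D and −30 D). It was 2.47, 2.67 and 2.67 in the SCN and 2.92, 2.46 and 2.51 in the LGN. Only the size of the change in this difference can be read, not the level. At the common floor the retina exceeded the brain by 0.31 (p = 0.0714, two-sided exact permutation test, n = 3 and 6), and with signals as measured by 0.40 (p = 0.0476, exact permutation test). On the normal and −30 D retinal arrays the dimmer probe of miR-212-3p stood at 2.71 and 1.77 errors and did not enter its signal. On the 0 D retinal array and all SCN and LGN arrays both probes entered, so both values set unlike sums against each other. Under quantile normalization and normexp the sign was opposite, at −0.82 and −0.51. A difference between the members in this step was therefore not settled. On the normal choroid array the same quantity was 0.82, and on the −30 D arrays of the choroid and iris it was 0.25 and −0.32.

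The 5p members, which are the opposite arms of the hairpins, were at or under the detection limit. miR-132-5p was not detected on any of the 24 arrays, and the highest of its 48 probe values was 0.825 errors above 0. A probe signal of 3.46 to 6.18, before scaling, would have been needed for detection. miR-212-5p was detected on 2 arrays, both from the SCN, with scaled signals of 4.73 ± 1.22 (0 D) and 5.44 ± 1.56 (−30 D). On the normal SCN array its brighter probe had 5.05 ± 1.76, just under 3 errors, so the 3 SCN arrays differed by less than their errors. In the LGN the same probe stood 1.13 to 2.42 errors above 0, under the limit. Neither 5p member entered the contrasts.

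**Figure D3:**
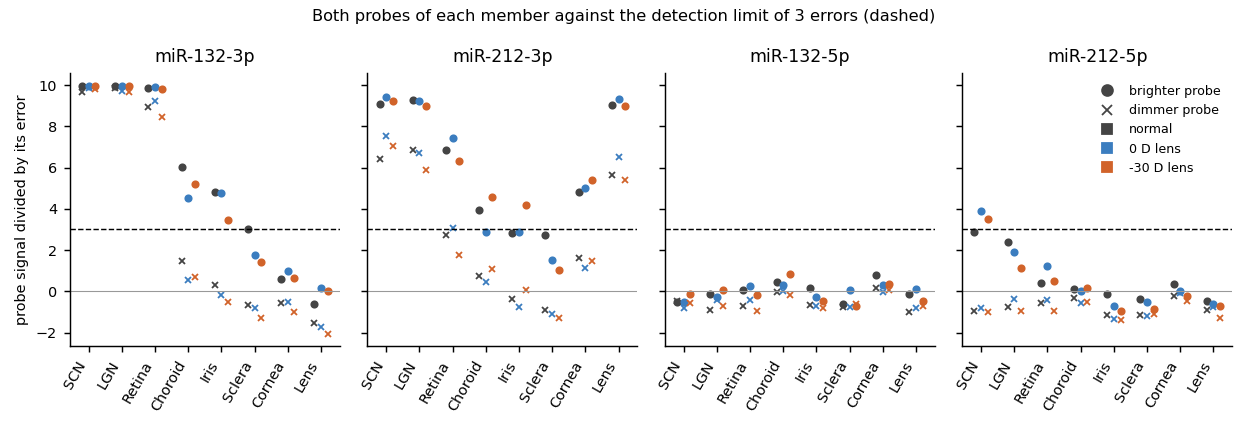
Signal of each of the 2 probes of the 4 members divided by its error (y axis), by tissue, with colours for the lens group; the dashed line is the limit of 3 errors. miR-132-5p reached at most 0.825 on any array, and miR-212-5p passed the line on 2 SCN arrays.

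The miRNAs most like each 3p member in their pattern over 24 arrays were sought among 196 others detected on at least 12 arrays, by Pearson's r of the floored log2 scaled signals. These r values describe arrays that share tissues and scaling, and no test was made. For miR-132-3p they were miR-9-5p (r = 0.984), miR-410-3p (0.976), miR-300-3p (0.974), miR-434-3p (0.971) and miR-128-3p (0.970). miR-9-5p and miR-128-3p are abundant in neurons, and miR-410-3p, miR-300-3p and miR-434-3p come from the large imprinted miRNA cluster expressed in brain. miR-9-5p had means of 79.3 ± 9.10 in the SCN, 70.2 ± 8.31 in the LGN, 57.9 ± 8.06 in the retina and 6.70 ± 1.08 in the choroid (SD, n = 3) and was not detected in the other 4 tissues. Without scaling its order turned, with 87.4 ± 37.5 in the SCN, 103 ± 23.2 in the LGN and 95.4 ± 24.8 in the retina. miR-128-3p had a higher mean in the LGN (1037 ± 31.6) than in the SCN (634 ± 169), and also without scaling (1514 ± 227 and 658 ± 142). Without scaling 2 of the 5, miR-9-5p and miR-410-3p, were again among the 5 most like miR-132-3p, and the others were miR-598-3p, miR-382-5p and miR-129-2-3p.

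For miR-212-3p the 5 were miR-5100 (r = 0.927), miR-6368 (0.924), miR-3968 (0.920), miR-6366 (0.907) and miR-3963 (0.906). All 5 were detected on all 24 arrays, so they are among the miRNAs that set the scaling, and the same 5 came out without scaling (r from 0.873 to 0.924). Each had its highest mean in the lens, with and without scaling, for example 20985 ± 223 for miR-5100 against 4378 ± 136 in the SCN, 4518 ± 460 in the cornea and 2004 ± 152 in the retina (SD, n = 3). miR-6368 had 552 ± 25.3 in the lens, 147 ± 18.4 in the SCN and 63.7 ± 7.63 in the retina. The 2 cluster members had r = 0.270 with each other, which placed miR-212-3p 76th among the 196 for miR-132-3p.

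**Figure D4:**
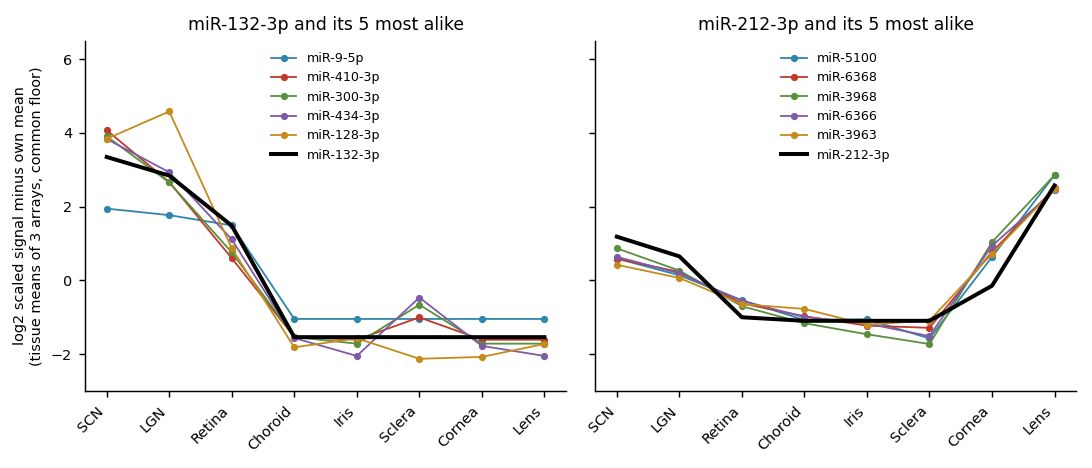
Tissue means of log2 scaled signal (common floor) minus each miRNA's own mean over tissues, for miR-132-3p and miR-212-3p (thick lines) and the 5 miRNAs most like each. In the left group brain lay above retina and retina above the other tissues, among which miR-434-3p, miR-300-3p and miR-410-3p stood above their lowest level in the sclera. In the right group the lens was highest.

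A list of 12 miRNAs linked to light or neuronal activity, written from general knowledge, put the cluster beside related genes. miR-134-5p, a dendritic miRNA, was not detected on any array and the other 11 were tested. In brain minus non-retinal ocular tissues, 6 of 11 were higher and 5 lower, beside 35.8% and 34.9% of all miRNAs tested, with a median log2 difference of 0.85 beside 0.0 over all miRNAs tested. The 6 that were higher were miR-219a-5p, the other clock-linked miRNA of the SCN, and the activity-linked miR-138-5p, miR-379-5p, miR-381-3p, miR-329-3p and miR-485-5p. The 5 that were lower were the light-regulated retinal cluster of miR-183-5p, miR-96-5p and miR-182-5p and the pigment-cell pair miR-204-5p and miR-211-5p. The same 6 were lower and the same 5 higher in retina minus brain, where 29.8% of all were lower and 18.8% higher. In retina minus non-retinal ocular tissues 5 were higher and 1 was lower (27.3% and 29.8% over all). Of the 5 not called, miR-138-5p, miR-329-3p, miR-381-3p and miR-485-5p lay under the common floor on both sides and could not have been called, although each was detected on all 3 retinal arrays. None of the 11 was called between lens groups, where 0.0% (−30 D minus normal), 0.568% (0 D minus normal) and 0.284% (−30 D minus 0 D) of all miRNAs were called. These counts rest on scaled signals alone.

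miR-219a-5p differed from miR-132-3p between the 2 brain regions. Its scaled signals ran from 47.9 to 82.0 in the SCN, from 171 to 234 in the LGN and from 13.4 to 17.7 in the retina, with no detection in the other 5 tissues. The SCN minus LGN difference was −1.54 ± 0.145 (SE, log2; adjusted p = 2.14e-07, limma). In the same contrast miR-381-3p (1.52 ± 0.0440), miR-379-5p (1.35 ± 0.107), miR-485-5p (0.98 ± 0.0584) and miR-329-3p (0.55 ± 0.0395) were higher in the SCN, and 6 of 11 were not called. Over all miRNAs 28.1% were higher and 6.82% lower in this contrast. These differences are on scaled signals, and no unscaled values are given for them. The SCN minus LGN difference of miR-132-3p was 0.50 with scaling and 0.03 without it. A difference as small as that of miR-329-3p may likewise depend on the scaling. The oligodendrocyte markers miR-219a-2-3p and miR-338-3p also summed higher in the LGN (507 to 759) than in the SCN (193 to 291), and their part in the miR-219a-5p difference was not tested.

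The lens groups were compared over all 8 tissues, with the tissue as a block. Each slide held 1 lens group, so a slide effect and a lens effect cannot be told apart. For −30 D minus normal, miR-132-3p had a log2 difference of −0.06 ± 0.0541 (SE; adjusted p = 0.854, limma; 95% interval −0.18 to 0.06) and miR-212-3p −0.04 ± 0.0527 (adjusted p = 0.875, limma; −0.15 to 0.07). In limma 0.0% of the 352 miRNAs were called in this contrast, and 25 had an unadjusted p under 0.05. For 0 D minus normal the differences were −0.06 (adjusted p = 0.634, limma) and −0.01 (adjusted p = 1.0, limma), with 0.568% of all miRNAs called, and for −30 D minus 0 D they were 0.003 and −0.03 (adjusted p = 1.0 and 0.937, limma), with 0.284% called. At the floor 5 of 8 tissues gave no difference for miR-132-3p, which narrows these intervals and draws the means toward 0. With undetected signals at the lowest of their array and no common floor, −30 D minus normal was −0.17 (95% interval −0.50 to 0.16) for miR-132-3p and 0.29 (−0.18 to 0.75) for miR-212-3p (adjusted p = 0.990 for both, limma), so the sign for miR-212-3p was not settled. The exact sign-flip test over tissues gave p of 0.50 to 1.0 for the 6 values. With tissues at the floor, the smallest p it can give was 0.25 for miR-132-3p and 0.0625 to 0.125 for miR-212-3p. It therefore could not have reached 0.05 for either member.

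Within a tissue each lens group was 1 array, so no test was possible, and the criteria of the study were applied to every tissue. These count a ratio above 2 or below 0.5 with both arrays detected, and a ratio above 5 or below 0.2 with 1 array detected and the other set to 0.1. For −30 D over normal, 14 member and tissue pairs were detected on at least 1 array, and in 11 both arrays were detected. None of these 11 was called, with log2 ratios from −0.41 to 0.26. All 3 pairs detected on 1 array were called, beside 17.2% of all miRNA and tissue pairs. For 0 D over normal 3 of 13 were called (15.6% over all miRNAs) and for −30 D over 0 D 2 of 13 (15.4%), again only where 1 array was detected.

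**Figure D5:**
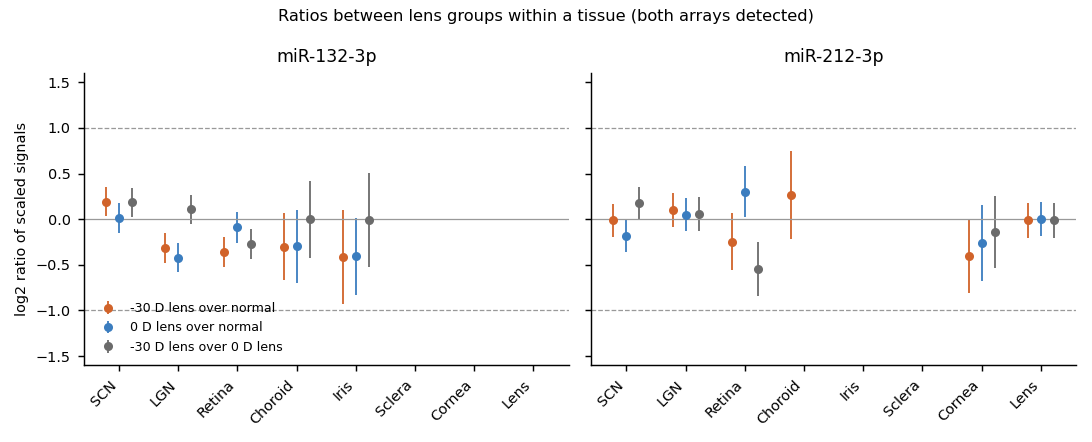
Log2 ratios of scaled signals between lens groups within each tissue for miR-132-3p and miR-212-3p, where both arrays detected the miRNA; bars are the propagated error and the dashed lines mark a 2-fold ratio. All points lie inside the 2-fold lines.

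On scaled signals, miR-132-3p in the retina had a log2 ratio of −0.36 ± 0.168 for −30 D over normal and −0.09 ± 0.166 for 0 D over normal. In the LGN it had −0.31 ± 0.163 and −0.42 ± 0.163. In the SCN the ratios were 0.19 ± 0.163 and 0.01 ± 0.163, opposite in sign to those of the retina and within 2 errors of 0. The retinal −30 D and the LGN 0 D ratio were the ones beyond 2 errors on this scale among those of both members against normal, and each is a single pair of arrays. Without scaling these were −0.29 ± 0.168 and −0.11 ± 0.163, both within 2 errors. The SCN ratios of miR-132-3p without scaling were 0.57 ± 0.163 (−30 D) and 0.89 ± 0.163 (0 D), and those of miR-212-3p 0.36 ± 0.181 and 0.70 ± 0.179, all beyond 2 errors. For −30 D over 0 D in the retina, miR-132-3p had −0.27 ± 0.167 and miR-212-3p −0.55 ± 0.294 with scaling, both within 2 errors. Without scaling these were −0.52 and −0.80, both beyond 2 errors, each from a single pair of arrays. In this comparison 4 of 11 ratios passed 2 errors without scaling and 0 with it. Which ratios passed 2 errors therefore depended on the scaling, and none passed 2-fold on either scale. On scaled signals the ratios of miR-212-3p in the retina were −0.25 ± 0.310 and 0.30 ± 0.279 (0.62 without scaling for the latter), and in the lens −0.01 ± 0.194 and 0.001 ± 0.187.

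The pairs called with 1 array detected lay next to the detection limit. In the iris miR-212-3p was counted as higher in the −30 D group, on which its brighter probe had 4.91 ± 1.17 (scaled, 4.19 errors). On the normal array the same probe had 2.86 ± 1.0 (2.85 errors) and on the 0 D array 2.17 ± 0.761 (2.86 errors). The difference from normal was 2.06 ± 1.54 and from 0 D 2.74 ± 1.40, and the lower bound of the ratio to the 0 D array was 1.1, with none above 1 for the normal array. In the sclera miR-132-3p was counted as lower with both lenses. Its brighter probe had 3.7 ± 1.23 in the normal group (3.0 errors), 3.33 ± 1.91 in the 0 D group and 2.47 ± 1.71 in the −30 D group, so the differences of −0.36 ± 2.27 and −1.23 ± 2.11 lay within their errors. In the choroid miR-212-3p was detected in the normal and −30 D groups but not with the 0 D lens, where its brighter probe had 4.58 ± 1.6 against 5.47 ± 1.38 in the normal group. For miR-212-5p in the SCN the differences from the normal array were −0.31 ± 2.14 (0 D) and 0.39 ± 2.35 (−30 D).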

How the data were processed

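The authors digitized 24 one-colour arrays, labelled from 100 ng of total RNA, with Feature Extraction 10.7.1.1, and deposited scanner files with an intensity and an error for each probe after background subtraction. A deposited table of the whole series was not used here. The signal of a miRNA was the sum of its probes above 3 errors. Arrays were scaled by the 75th percentile of the 79 miRNAs that every array detected. Signals were then floored at the highest of the arrays' lowest detected signals (9.93) and taken as log2. The 352 miRNAs detected on at least 3 arrays were fitted in limma 3.58.1 (R 4.3.3) with tissue and lens group, and Benjamini-Hochberg adjustment ran over all of them, with calls at 0.05. The number of arrays limits the precision, and the 3 arrays of a tissue differ in lens group. A tissue held the same place on every slide, so place and tissue cannot be told apart. The fit was tested on simulated data. The members, the list of 12 miRNAs, the markers and the alternatives were chosen with earlier results of these data known. Named were the 4 members, that list, and the 5 miRNAs most like each 3p member. Tables were made with pandas 2.3.3 and numpy 2.4.6 in Python 3.11.15, permutation tests with scipy 1.17.1, and plots with matplotlib 3.10.9.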

Additional observations from a re-analysis of the deposited data

How the results depend on the processing

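For miR-132-3p the contrasts of brain and of retina with the non-retinal ocular tissues kept their direction and call in all 21 alternatives each. The retina minus brain value stayed negative, at −1.61 with adjusted p = 0.0663 (limma) where undetected miRNAs were set to 0.1. SCN minus LGN kept its sign for both members but lost its call in 7 and 8 of 16 alternatives. For miR-132-3p and miR-212-3p in this order, these were 0.024 and 0.053 with a percentile over the miRNAs of each array, 0.031 and 0.059 without scaling, 0.16 and 0.014 with quantile normalization, 0.11 and 0.0035 with normexp, and 0.50 and 0.53 with undetected miRNAs at 0.1 or at the lowest signal of their array and in the exact permutation test (p = 0.10). With the printed total signal it was 0.53 for miR-212-3p (adjusted p = 1.0, limma). For miR-212-3p, brain minus non-retinal ocular was 0.027 with quantile normalization, −0.23 with the printed total signal and 1.09 in the exact permutation test (p = 0.0996). Its retina minus non-retinal ocular value was 0.18 with a percentile over the miRNAs of each array, 0.62 without scaling, 0.50 with the printed signal, −0.036 with normexp, 1.90 and 0.080 with undetected miRNAs at 0.1 and at the lowest of the array, and −0.83 in the exact permutation test (p = 0.539). Over left-out tissues and lens groups it ran from −1.06 to −0.14, the latter without the lens. Retina minus brain was 0.73 with the printed signal and −2.01 with undetected miRNAs at 0.1. Among the pairs of tissues, lens minus SCN was −0.11 without scaling; cornea minus LGN was 2.26 and retina minus LGN 1.0 with the printed signal; and cornea minus retina was −0.26 with each array's percentile, −0.57 without scaling and −0.027 with normexp. Calls were also lost, with the sign kept, for lens minus SCN, cornea minus LGN and cornea minus retina in 2 alternatives each and for retina minus LGN in 1 for each member. The unequal step of the 2 members was 0.40 as measured, without scaling, with each array's percentile and with both other values for undetected miRNAs, and −0.82 and −0.51 with quantile normalization and normexp. With the printed signal it was −2.38 (exact permutation p = 0.143). With the sum over all probes it stayed positive, and the exact permutation p was not under 0.05. No lens contrast of a member was called under any of the alternatives, and the brain regions alone gave 0.15 and 0.11 for −30 D minus 0 D. With undetected miRNAs at the lowest of their array, the members called within tissues fell to 0 in all 3 comparisons, and with the printed signal −30 D over 0 D had 4. Over all miRNAs, calls for 0 D minus normal (2) and −30 D minus 0 D (1) ranged from 0 to 15 and from 0 to 25, the highest without scaling. The percentile over each array's own miRNAs, the left-out tissues of tissue contrasts the unscaled ratios within tissues and the alternatives of the unequal step were chosen after seeing the data. A percentile over all miRNAs was not run, because it was not positive on 1 array.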
